A study of Mus musculus with 6 samples.

Results

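The 10 genes described here encode integrin subunits of adherent cells: the alpha subunits Itga1, Itga2, Itga3, Itga4, Itga5, Itga6 and Itgav and the beta subunits Itgb1, Itgb3 and Itgb5. They were followed in cultured mouse dermal fibroblasts, which make the matrix of the skin, after addition of the cytokine interleukin-1 (IL-1). Members were every non-control probe whose gene name in the scanner files was one of these symbols, which gave 27 probes of 10 gene names among 41174 probes of 28100 names. A filter on dim probes kept 30577 probes of the array and 21 of the 27 integrin probes, with at least 1 probe of each gene. The cells were of C57BL/6 mice, grown in medium with serum, and received IL-1 at 20 ng/ml for 1, 2 or 4 h or were left untreated (0 h). Each of the 6 two-colour arrays held RNA of treated cells in one dye and RNA of untreated cells in the other. Replicate 1 of each time had the treated RNA in Cy5 and replicate 2 had it in Cy3, so the 2 arrays of a time were a dye swap of the same RNAs and counted as 1 sample.

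Integrins are receptors of 1 alpha and 1 beta chain that span the cell membrane and tie the extracellular matrix to the actin cytoskeleton. The alpha chain largely sets the ligand: alpha1 and alpha2 pair with beta1 to bind collagen, alpha3 and alpha6 pair with beta1 to bind laminins, and alpha5 pairs with beta1 to bind fibronectin. Alpha4 with beta1 binds fibronectin and the adhesion molecule Vcam1, and alpha-v with beta1, beta3 or beta5 binds fibronectin or vitronectin and activates latent TGF-beta. In skin fibroblasts these receptors carry attachment, spreading and the contraction of the matrix.

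Each value is the log2 ratio of IL-1-treated over untreated RNA, and a fold is 2 to that power. The error given at a time is the distance of either dye orientation from their mean, which is technical. The mean response is the mean over 1, 2 and 4 h, tested against 0 in limma over all 30577 probes and given with its standard error and a Benjamini-Hochberg adjusted p. A probe past an adjusted p of 0.05 is called higher or lower. Nothing states that the times came from separate cultures, so p-values measure only the spread between these samples, and a ratio against 0 leaves out the spread of the untreated cells. All directions follow the dyes in the labels: the authors' deposited ratio for each array is found in the scanner file of its dye-swap partner, and if the scanner files rather than the columns were exchanged, every sign would turn. In the labelled direction, 4 genes that IL-1 is known to induce through NF-kB had mean responses of 5.51 (the chemokine Cxcl1), 2.51 (the inhibitor Nfkbia), 2.74 (the cytokine Il6) and 2.21 (the adhesion molecule Icam1). In bulk RNA, fewer cells of a type and less RNA per cell cannot be told apart.

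Among the integrins, 4 genes were called higher after IL-1 and 1 lower on the brightest probe of each gene. Over all gene names counted this way, 11% were called higher and 11.3% lower. Itga5 had a mean response of 0.41 (1.33-fold), Itgb1 of 0.30 (1.23-fold), Itgav of 0.18 (1.13-fold) and Itgb5 of 0.13 (1.10-fold). Itga4 was lower at -0.13 (0.915-fold). Itga5 was not called on the Cy5 arrays alone (0.086), and Itga4 was not called on the Cy3 arrays alone (0.0067). The brightest probes of Itga1, Itga2, Itga3, Itga6 and Itgb3 were not called. The largest change of a member was 1.33-fold, and no member was called in the comparison of the times with each other.

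The RefSeq promoter windows of the 4 genes that were higher on their brightest probe, and of Itga4, are shown so that the regulatory sequence of the called members can be read beside their values. They run 5′ to 3′ on the gene's strand, from 250 bases before to 50 after the start, in lower case with each match to the Sp1 motif GGGCGG on either strand in capitals. The build is GRCm38.p6. The Itga5 window is at chr15:103366742-103367041 on the minus strand, the Itgb1 window at chr8:128685404-128685703 on the plus strand and the Itgav window at chr2:83724147-83724446 on the plus strand. The Itgb5 window is at chr16:33829415-33829714 and the Itga4 window at chr2:79255176-79255475, both on the plus strand. The Itgav gene begins at 83722303 in this build, so the Itgav window surrounds a start that lies inside the gene.
Itga5: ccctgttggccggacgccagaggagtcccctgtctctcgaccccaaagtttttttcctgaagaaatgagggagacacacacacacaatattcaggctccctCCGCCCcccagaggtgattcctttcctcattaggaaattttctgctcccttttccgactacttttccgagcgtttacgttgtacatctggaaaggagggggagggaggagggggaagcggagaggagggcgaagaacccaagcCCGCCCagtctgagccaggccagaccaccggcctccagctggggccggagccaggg
Itgb1: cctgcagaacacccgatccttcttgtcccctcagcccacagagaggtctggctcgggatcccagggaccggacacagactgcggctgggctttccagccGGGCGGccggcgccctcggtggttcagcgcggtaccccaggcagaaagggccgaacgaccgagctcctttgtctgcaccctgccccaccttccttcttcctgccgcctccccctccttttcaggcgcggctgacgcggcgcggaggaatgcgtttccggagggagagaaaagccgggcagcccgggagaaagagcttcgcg
Itgav: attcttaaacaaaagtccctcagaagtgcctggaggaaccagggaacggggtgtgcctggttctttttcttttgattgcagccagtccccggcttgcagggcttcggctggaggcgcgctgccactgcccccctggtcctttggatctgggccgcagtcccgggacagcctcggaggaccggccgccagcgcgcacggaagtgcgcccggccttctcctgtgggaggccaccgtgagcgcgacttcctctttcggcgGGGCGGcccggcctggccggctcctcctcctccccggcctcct
Itgb5: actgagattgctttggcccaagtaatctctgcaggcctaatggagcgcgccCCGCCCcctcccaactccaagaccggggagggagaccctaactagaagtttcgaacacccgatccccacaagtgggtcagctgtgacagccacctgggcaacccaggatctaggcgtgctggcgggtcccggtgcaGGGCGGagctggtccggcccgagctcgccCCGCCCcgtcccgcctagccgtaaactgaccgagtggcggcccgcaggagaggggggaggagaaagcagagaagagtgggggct
Itga4: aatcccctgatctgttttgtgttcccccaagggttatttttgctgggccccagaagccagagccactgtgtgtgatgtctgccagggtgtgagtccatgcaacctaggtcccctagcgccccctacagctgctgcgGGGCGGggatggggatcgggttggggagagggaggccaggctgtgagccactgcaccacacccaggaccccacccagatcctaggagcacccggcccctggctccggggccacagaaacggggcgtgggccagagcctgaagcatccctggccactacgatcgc

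Of the 10 members, 8 matched the promoter table, with 9 windows since Itga3 had 2. The GGGCGG motif lay in 8 of the 9 windows, the exception being that of Itga1, against 35.7% of the 32851 windows of the table. The Itga5 window held 2 matches and the Itgb5 window 3, while those of Itgb1, Itgav and Itga4 held 1 each. These windows are also rich in G and C, at 58.7% in Itga5, 67.3% in Itgb1 and Itgav, 65.7% in Itgb5 and 64.3% in Itga4, against a median of 52.7% over the table. The AP-1 motif TGANTCA was found in the second Itga3 window alone (7.81% of all windows). The NF-kB consensus, the CRE motif TGACGTCA, the TATA motif TATAAA and the CArG box of SRF were searched on both strands and had no match in the 9 windows (4.51%, 1.79%, 13.6% and 1.63% of all windows). A match is a description of letters and not of a bound site, and the motif did not separate Itga4 from the genes that were higher.

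Itga5, the alpha chain of the fibronectin receptor, has 1 probe on the array (A_52_P364140). With treated RNA in Cy5 its log2 ratio was 0.043 at 1 h, 0.20 at 2 h and 0.018 at 4 h, and with treated RNA in Cy3 it was 0.71, 0.80 and 0.69. All 6 arrays lay above 0, but the 2 orientations did not overlap: every Cy3 value was far above every Cy5 value. The means of both orientations were 0.38 ± 0.34 at 1 h, 0.50 ± 0.30 at 2 h and 0.35 ± 0.34 at 4 h. The mean response of 0.41 ± 0.034 (SE, 3 times; 95% interval 0.33 to 0.49) was called in limma with an adjusted p of 0.0013, and 0.808% of kept probes had a higher mean response. The normalised intensity was 442 to 752 (median 504) in untreated and 638 to 788 (median 725) in treated RNA, so the ranges overlapped.

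The size of the Itga5 response differed by orientation more than its direction did. The dye effect, the signed deviation shared by the arrays of one orientation, was -0.32 for Itga5, and 0.540% of kept probes had a larger one in size. Over all kept probes its median size was 0.057 and its 95th percentile 0.18. On the Cy5 arrays alone, without replicate 2, the mean response was 0.086 (limma, adjusted p = 0.14; above 0 on 3 of 3 arrays), and on the Cy3 arrays alone, without replicate 1, it was 0.74. The direction was the same in both orientations. The mean removes a dye effect only where it is equal on the paired arrays, which was not tested.

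Itgb1 encodes the beta chain shared by most of the alpha chains described here, and has 3 probes, all kept. The brightest (A_51_P286527) had log2 ratios with treated RNA in Cy5 of 0.22 at 1 h, 0.28 at 2 h and 0.45 at 4 h. With treated RNA in Cy3 it had 0.26, 0.26 and 0.35. All 6 arrays lay well above 0, the orientations overlapped, and the highest value in each orientation was at 4 h. The means by time were 0.24 ± 0.017, 0.27 ± 0.012 and 0.40 ± 0.054, and the mean response of 0.30 ± 0.036 (SE, 3 times) was called with a limma adjusted p of 0.0033. Its normalised intensity was 2034 to 2535 in untreated and 2503 to 3232 in treated RNA, so the ranges overlapped at their edge. In all, 1.47% of kept probes had a higher mean response.

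The next Itgb1 probe (A_52_P351816) was between 0.11 and 0.16 on all 6 arrays, with a mean response of 0.14 ± 0.022 (limma, adjusted p = 0.0087). Without the 2 h sample its call was lost (0.14, limma adjusted p = 0.072; above 0 on 4 of 4 arrays), and under median centring its mean was 0.0048 (limma, adjusted p = 0.93). Both probes are described in the scanner files by the same Itgb1 transcript, and both were called higher, but the first gave the larger change at each time. The third (A_52_P69236), which the files describe as the beta1D form, a splice form known from striated muscle, was dim. It was well above background in treated RNA on 4 of 6 arrays and in untreated RNA on 5 of 6, and its ratios ran from -0.16 to 0.11 with a mean of -0.019 (limma, adjusted p = 0.70; above 0 on 2 of 6 arrays).

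Itgav encodes the alpha-v chain, the partner of several beta chains in receptors for vitronectin and latent TGF-beta. Its bright probe (A_51_P382484) had 0.24, 0.21 and 0.13 at 1, 2 and 4 h with treated RNA in Cy5 and 0.24, 0.097 and 0.14 with treated RNA in Cy3. All 6 values were above 0 and both values at 1 h exceeded those at 4 h. The means by time were 0.24 ± 0.0019, 0.15 ± 0.058 and 0.13 ± 0.0081, and the mean response was 0.18 ± 0.029 (limma, adjusted p = 0.0088). The second kept probe (A_51_P498205) was at 0.13, 0.18 and 0.068 in one orientation and at -0.21, -0.15 and -0.14 in the other. Its sign followed the dye and not the treatment, and its mean response was -0.020 (limma, adjusted p = 0.64; above 0 on 3 of 6 arrays). The other 2 Itgav probes (A_52_P102916 and A_52_P601264) were not well above background on any array. The call of the bright probe was lost without the 2 h sample (0.19, limma adjusted p = 0.057; above 0 on 4 of 4 arrays) and under median centring (0.032, limma adjusted p = 0.54).

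Itgb5 encodes the beta chain that pairs with alpha-v as a vitronectin receptor. Its single probe (A_51_P327796) had 0.097, 0.16 and 0.25 at 1, 2 and 4 h with treated RNA in Cy5 and 0.048, 0.093 and 0.15 with treated RNA in Cy3. The value was above 0 on all 6 arrays, and 4 h was the highest and 1 h the lowest time in each orientation. The means by time were 0.073 ± 0.025, 0.13 ± 0.035 and 0.20 ± 0.049, and the mean response was 0.13 ± 0.030 (limma, adjusted p = 0.025). The normalised intensity was 4991 to 6468 in untreated and 5384 to 7678 in treated RNA, so the ranges overlapped although each array's own ratio was above 0. Without the 2 h sample the adjusted p in limma was 0.13 with a mean of 0.14, and without the 4 h sample it was 0.066 with a mean of 0.10; the ratio stayed above 0 on 4 of 4 arrays in each case. On the Cy3 arrays alone, without replicate 1, the mean was 0.097 (limma, adjusted p = 0.074).

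Itgb3, the beta chain that forms the other classic vitronectin receptor with alpha-v and the platelet fibrinogen receptor, was not called. Its 1 probe (A_51_P237893) had 0.12, 0.26 and 0.13 at 1, 2 and 4 h with treated RNA in Cy5 and -0.083, -0.22 and -0.17 with treated RNA in Cy3. Every Cy5 value was above 0 and every Cy3 value below it. The mean response was 0.0059 ± 0.023 (95% interval -0.050 to 0.062; limma, adjusted p = 0.89; above 0 on 3 of 6 arrays). Read in one orientation alone it would have been called, at 0.17 without replicate 2 and at -0.16 without replicate 1.

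**Figure D1:**
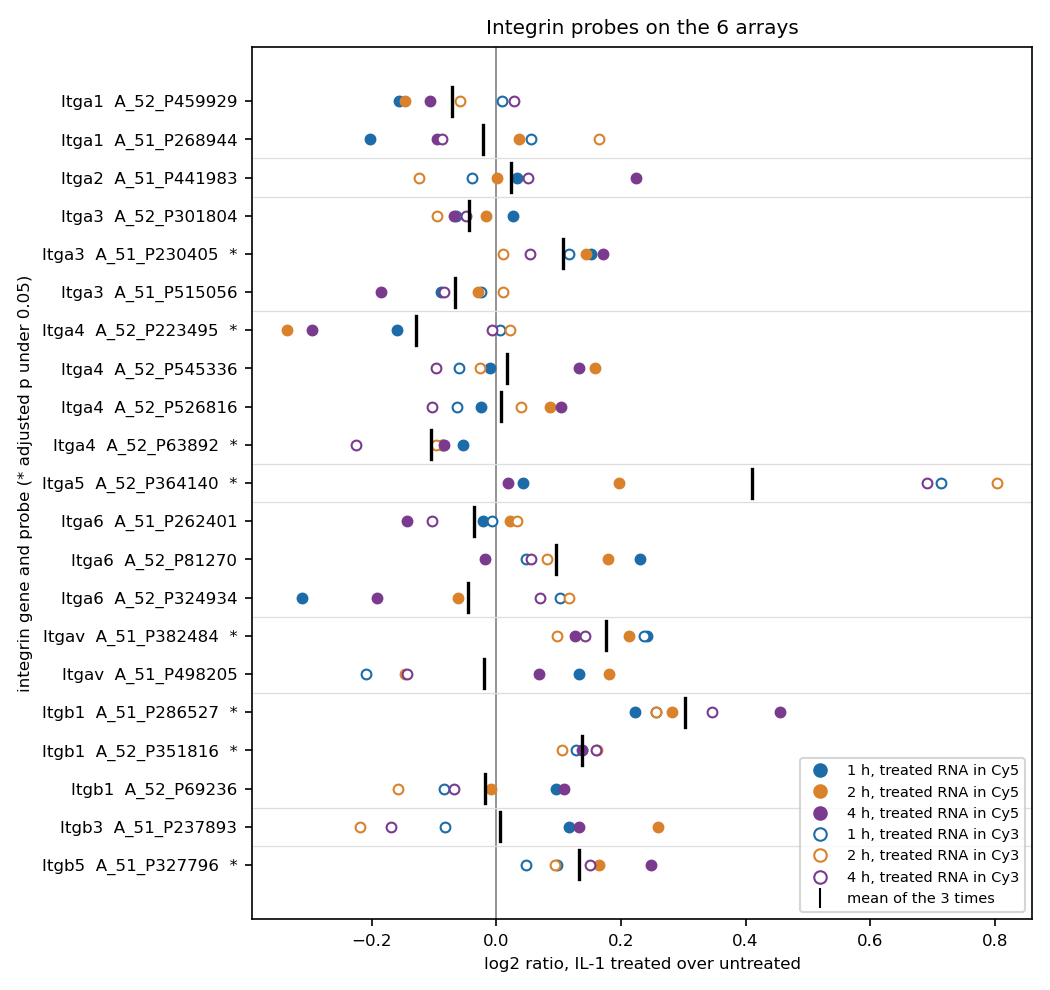
Log2 ratio of treated over untreated on each of the 6 arrays for the 21 kept integrin probes. Filled points have the treated RNA in Cy5 and open points in Cy3, colours give the time, black bars the mean of the 3 times, and a star marks an adjusted p under 0.05. All 6 points of Itga5 lie above 0 but the open ones sit at 0.69 to 0.80 and the filled ones at 0.018 to 0.20, whereas the points of the brightest Itgb1 probe lie together between 0.22 and 0.45.

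Itga4 encodes the alpha4 chain, a receptor for Vcam1 and for a segment of fibronectin, and was the only member with probes called lower. It has 6 probes, of which 4 were kept. The brightest (A_52_P223495) had -0.16, -0.34 and -0.30 at 1, 2 and 4 h with treated RNA in Cy5 and 0.0057, 0.022 and -0.0072 with treated RNA in Cy3. The lower level was thus seen in the Cy5 orientation, and the Cy3 values lay around 0. Its mean response was -0.13 ± 0.027 (limma, adjusted p = 0.019; below 0 on 4 of 6 arrays). A dim probe (A_52_P63892) was below 0 on all 6 arrays, from -0.23 to -0.053, with a mean response of -0.11 ± 0.026 (limma, adjusted p = 0.035). It was well above background on all 6 arrays in untreated RNA and on 3 of 6 in treated RNA. This dim probe thus met the filter in untreated RNA, the side on which it was higher. The filter could favour that direction, so its call is not independent support for the brighter probe.

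The other kept Itga4 probes did not share this direction. A_52_P545336 had a mean of 0.016 and A_52_P526816 one of 0.0066 (limma, adjusted p = 0.73 and 0.90), with 2 and 3 of 6 arrays above 0. The probes not kept, A_51_P400884 and A_52_P373392, ran from -0.14 to 0.11 and from -0.098 to 0.072. The call of A_52_P223495 was lost without replicate 1, when its mean was 0.0067, and both Itga4 calls were lost without the 2 h sample and without the 4 h sample. For the brightest probe the means were then -0.11 and -0.12, with limma adjusted p of 0.14 and 0.056. For the dim probe they were -0.11 and -0.081, with adjusted p of 0.15 and 0.092, and its call was also lost without replicate 2, at -0.074.

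Itga3, the alpha chain of a laminin receptor, gave different answers by probe. A_51_P230405 was above 0 on all 6 arrays, at 0.15, 0.14 and 0.17 with treated RNA in Cy5 and 0.12, 0.010 and 0.055 with treated RNA in Cy3. Its mean response was 0.11 ± 0.024 (limma, adjusted p = 0.024). The brighter A_52_P301804 was at -0.044 ± 0.023 and A_51_P515056 at -0.067 ± 0.030, each above 0 on 1 of 6 arrays (limma, adjusted p = 0.24 and 0.17). The 3 probes disagreed in sign, so no direction is given for the gene. The call of A_51_P230405 was lost without any 1 of the times (means 0.095 without 1 h, 0.12 without 2 h and 0.11 without 4 h; limma adjusted p 0.10, 0.097 and 0.059) and without replicate 1 (0.060, limma adjusted p 0.23).

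Itga6, the alpha chain that forms laminin receptors with beta1 and beta4, had 3 kept probes and no call in the reported fit. The brightest (A_51_P262401) ran from -0.14 to 0.033 over the arrays, with a mean response of -0.036 ± 0.034 and its lowest values in both orientations at 4 h. Under median centring it was called lower at -0.16 (limma, adjusted p = 0.0066), as were 24.4% of all kept probes. A_52_P81270 was above 0 on 5 of 6 arrays with a mean of 0.096 ± 0.031 (limma, adjusted p = 0.077), and without the 4 h sample, where one orientation was below 0, it passed the threshold at 0.13 (limma, adjusted p = 0.024). A_52_P324934 was at -0.31, -0.062 and -0.19 in the Cy5 orientation and 0.10, 0.12 and 0.070 in the Cy3 orientation, so that its sign followed the dye. On the Cy5 arrays alone, without replicate 2, it was called lower at -0.19 (limma, adjusted p = 0.022).

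The collagen receptor chains Itga1 and Itga2 were dim. The brightest Itga1 probe (A_52_P459929) was below 0 on 4 of 6 arrays, with a mean response of -0.072 ± 0.024 (limma, adjusted p = 0.088). It was called lower in 4 of 15 alternatives: at -0.21 in both the processed signals and the authors' deposited values (limma, adjusted p = 0.047 in each), at -0.14 without replicate 2, and with the replicate block. Without replicate 1 it was at -0.0070. The other kept Itga1 probe (A_51_P268944) had a mean of -0.021 (limma, adjusted p = 0.77; above 0 on 3 of 6 arrays), and A_52_P518922, which was not kept, ran from -0.24 to 0.082. Itga2 had 1 kept probe (A_51_P441983), well above background on 3 of 6 arrays in each RNA, with ratios from -0.12 to 0.22 and a mean of 0.024 ± 0.040 (limma, adjusted p = 0.73; above 0 on 4 of 6 arrays). A change in Itga2 was hardly measurable at this signal, and its second probe (A_52_P612019) was not well above background on any array. Itga1 and Itga2 are neighbours on chromosome 13, 25978 bases apart with 0 genes between them in GRCm38.p6 (114833081 to 114932100 for Itga2 and 114958079 to 115101964 for Itga1).

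The other members are spread over the genome, in the same build. Itga4 (79255426 to 79333114), Itga6 (71786886 to 71858427) and Itgav (83722303 to 83806917) lie on chromosome 2, and Itga3 (95044475 to 95076844) and Itgb3 (104608000 to 104670476) on chromosome 11. Itga5 lies on chromosome 15 (103344286 to 103366791), Itgb1 on chromosome 8 (128685654 to 128733579) and Itgb5 on chromosome 16 (33829665 to 33949338). On chromosome 2, a probe of Itgav was called higher and 2 of Itga4 were called lower.

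Over the family, 6 of 21 kept probes were called higher, belonging to Itga5, Itgb1, Itgav, Itgb5 and Itga3, 2 were called lower, both of Itga4, and 13 were not called. Without the 2 h sample 2 were called higher, Itga5 and the brightest Itgb1 probe, and 0 lower, and without the 4 h sample 0 were lower. Of all kept probes, 3.03% were higher and 2.82% lower without 2 h, and 10.6% were lower without 4 h. With all times, the mean test called 10.5% of all kept probes higher and 11.4% lower. Of the 5838 probes with a mean log2 signal of 9 or more, 21.1% were called higher. The median mean response was 0.0059 over the kept integrin probes and 0.0021 over all kept probes. The ratio was above 0 on all 6 arrays for 6 kept integrin probes (10.4% of all kept probes) and below 0 on all 6 for 1 (10.1% of all). The integrin probes above 0 throughout were the same 6 that were called higher. No integrin probe was saturated on any array, and 17 of the 21 were well above background on every array in both channels.

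**Figure D2:**
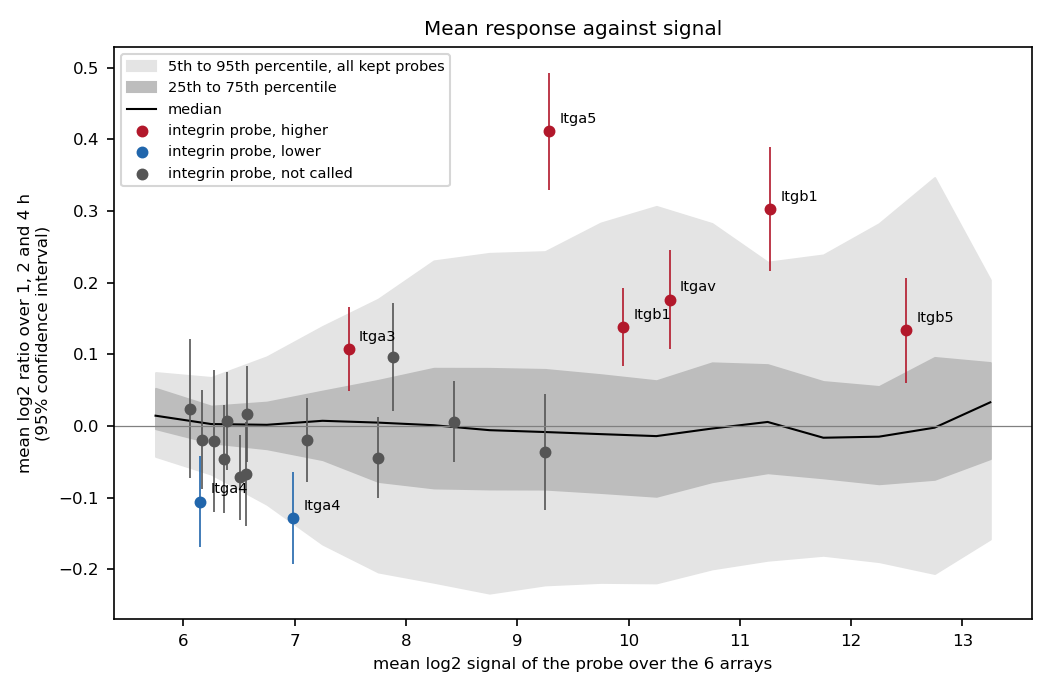
Mean log2 ratio over 1, 2 and 4 h against the mean log2 signal of each kept integrin probe, with 95% confidence intervals. Grey bands show the 5th to 95th and 25th to 75th percentiles of all 30577 kept probes in bins of signal and the black line their median. Itga5 at 0.41 and the brighter Itgb1 probe at 0.30 lie above the upper band, and the 2 lower Itga4 probes are among the dim ones.

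By size, no integrin probe reached a log2 ratio of 0.5 in both orientations at any time, in either direction. Of all kept probes, 0.5% did so upward at 1 h, 0.520% at 2 h and 0.435% at 4 h, and 0.0491%, 0.0948% and 0.0916% did so downward. At a size of 0.25, the brightest Itgb1 probe passed at 2 h and at 4 h and no integrin probe passed downward. With 1 treated RNA per time these counts have no test.

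The order of the genes by mean response of the brightest kept probe was Itga5, Itgb1, Itgav, Itgb5, Itga2, Itgb3, Itga6, Itga3, Itga1 and Itga4. The 95% intervals of all neighbours in this order overlapped. The interval of Itga5 (0.33 to 0.49) did not overlap that of Itgav (0.11 to 0.25), and that of Itgb1 (0.22 to 0.39) did not overlap that of Itgb5 (0.060 to 0.21). These are differences between ratios of single probes and carry no test of their own. The intervals also leave out the gap between the dye orientations. On the Cy5 arrays alone Itga5 was at 0.086, below Itgb1 (0.32), Itgav (0.19) and Itgb5 (0.17). On the Cy3 arrays alone it was at 0.74, above their 0.29, 0.16 and 0.097.

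The slope per doubling of time compared the times with each other. It called 0 integrin probes rising and 0 falling in limma, where 1 had an unadjusted p under 0.05, and where 0.196% of all kept probes were called rising and 0.242% falling. A limma fit with a trended and robust variance also called 0, with 3 unadjusted. The one unadjusted value was that of the brightest Itgb1 probe, at 0.081 ± 0.030 per doubling (unadjusted p = 0.032, limma adjusted p = 0.42), and Itgb5 followed at 0.063 ± 0.028 (limma adjusted p = 0.51). The slope of Itga5 was -0.012 ± 0.041 and that of Itgav -0.053 ± 0.029 (limma, adjusted p = 0.95 and 0.61). With 3 times and 1 residual degree of freedom, slopes of this size could not be separated from the spread.

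The 5 genes whose 3 time values were nearest to those of Itga5, by root mean square difference over 21265 genes, were Rhog, Ppp1r27, Slc20a1, Ptms and LOC56628. The differences ran from 0.0249 for Rhog, a small GTPase, to 0.030 for LOC56628, and 15 genes lay within 0.05. Rhog stood at 0.41, 0.52 and 0.35 at 1, 2 and 4 h, and the phosphate transporter gene Slc20a1 at 0.38, 0.45 and 0.35. None of these 5 had a dye effect of the size seen in Itga5, the largest being -0.11 in Rhog.

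Processing moved these calls. Itga5 was called higher in 14 of 15 alternatives, with means of 0.086 to 0.74, and the brightest Itgb1 probe in 14 of 15, with means of 0.15 to 0.33 and an adjusted p in limma of 0.0502 in the exception, the authors' deposited values. The bright Itgav probe was called in 11 of 15, the second Itgb1 probe in 10 of 14, the brightest Itga4 probe in 10 of 15, the dim Itga4 probe in 10 of 14, Itgb5 in 8 of 15 and the Itga3 probe in 7 of 14. Of the 8 calls, 6 were lost without the 2 h sample, 6 with the authors' deposited values, 5 with the scanner's processed signals and 5 when loess was replaced by median centring, in which each array's median log ratio is set to 0. Of all calls, 18.4% were higher under median centring, against 48.1% in the reported fit, and the median of the probes with a log2 signal of 9 or more became -0.15, against -0.0050. Under it 5.49% of all kept probes were higher and 24.4% lower. Among the integrin probes 2 were lower, the brightest probes of Itga4 at -0.15 and Itga6 at -0.16. The 2 that were higher were Itga5 at 0.30 and the brightest Itgb1 probe at 0.15. Itgb5 turned to -0.034 (limma, adjusted p = 0.55). The bright Itgav probe fell to 0.032, the next Itgb1 probe to 0.0048, and the Itga3 probe to 0.055 under it (limma, adjusted p = 0.54, 0.93 and 0.24). With the scanner's processed signals, Itga5 and the brightest Itgb1 probe were called higher at 0.46 and 0.31. The dim Itga4 probe was then at -0.46 and remained called, and the brightest Itga4 probe was at -0.23 (limma, adjusted p = 0.054).

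**Figure D3:**
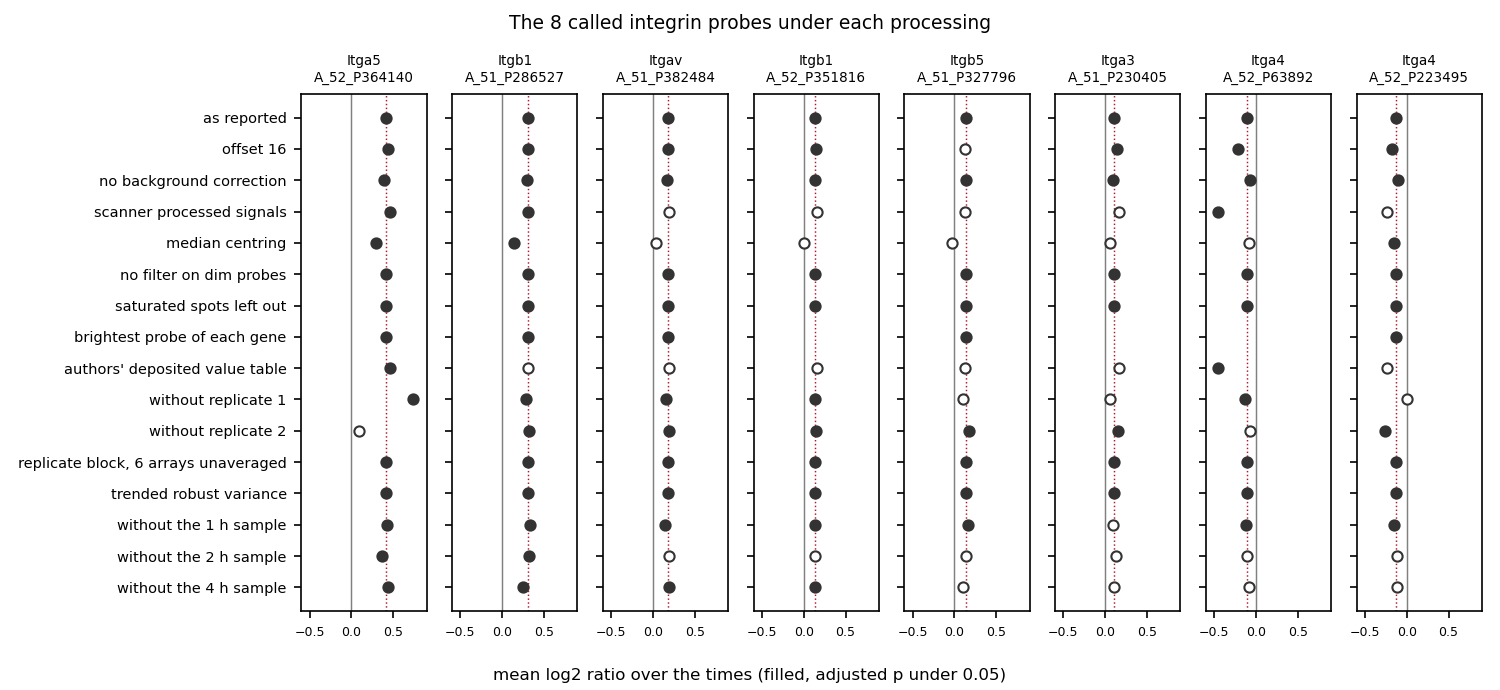
Mean log2 ratio of the 8 called integrin probes under the reported processing and each alternative, 1 panel per probe, filled where the adjusted p was under 0.05. The dotted line marks the reported value. Itga5 and the first Itgb1 probe stay above 0 in every alternative, whereas Itgb5 falls to -0.034 under median centring and the brighter Itga4 probe reaches 0.0067 without replicate 1.

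The lists of genes that work with integrins were taken from general knowledge, one probe per gene, the brightest. Over all 21275 gene names counted this way, 11% were called higher and 11.3% lower, with a median mean response of 0.0038. The adhesion site, ligand and membrane partner lists were bright, with median log2 signals of 10.0, 10.8 and 11.3. Of all kept probes with a mean log2 signal of 9 or more, 21.1% were called higher. A list of integrin genes of other mesenchymal or epithelial cells, which includes the integrin-like Itgbl1, had 8 measured genes. Of these, 1 was called higher and 0 lower (2 and 2 at an unadjusted p under 0.05, and 2 and 0 with a trended and robust variance), with a median of -0.024. The called gene was Itgb6, the epithelial partner of alpha-v, at 0.16 ± 0.027 on a dim probe (limma, adjusted p = 0.010; above 0 on 5 of 6 arrays), and its call was lost without replicate 2 (0.061) and without the 2 h sample (0.15). The Itgb6 probe was well above background in untreated RNA on 4 of 6 arrays. It thus met the filter only through treated RNA, the side on which it was called higher, and the filter could favour that direction. The genes of that list called lower rose to 4 under median centring, 3 without replicate 2, 2 with the replicate block and 2 without the 1 h sample. Of all kept probes, 24.4%, 16.5%, 15.3% and 8.72% were lower in these fits. Of 6 measured integrin genes of leukocytes and platelets, 0 were called in either direction in limma, 1 having an unadjusted p under 0.05, and a trended and robust variance also called 0. Their median was 0.032.

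Among 41 measured genes of integrin activation and adhesion sites, 13 were called higher and 8 lower, with a median of 0.029. Actn4, which encodes an alpha-actinin that crosslinks actin at adhesion sites, was higher at 0.20 ± 0.027. The lowest were Lims2 at -0.42 ± 0.058 and Lims1 at -0.33 ± 0.026, which encode the PINCH adaptors that bind integrin-linked kinase, and the small GTPase Rap1a, an integrin activator, at -0.23 ± 0.026. Tns2, which encodes a tensin that links beta tails to actin, was lower at -0.19 ± 0.026. These are limma calls with adjusted p of 0.0048 for Actn4, 0.0052 for Lims2, 0.0012 for Lims1, 0.0029 for Rap1a and 0.0049 for Tns2. Both Lims genes and Tns2 were below 0 on all 6 arrays, while Actn4 was above 0 on 5 and Rap1a below 0 on 4 of 6. Rap1a had a dye effect of -0.25, and its sign turned, to 0.020, without replicate 1. The call of Actn4 was lost without replicate 2, at 0.041.

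Of 42 measured integrin ligands, 17 were called higher and 3 lower, with a median of 0.089. Icam1, the ligand of leukocyte integrins, stood at 2.21 ± 0.11 and Vcam1, the ligand of alpha4 beta1, at 1.29 ± 0.075, and both were above 0 on all 6 arrays. Fn1, fibronectin, the ligand of alpha5 beta1, was at 0.30, 0.38 and 0.38 at 1, 2 and 4 h, with a mean of 0.35 ± 0.027. The laminin chain gene Lama4 was at 0.33 ± 0.031, and Thbs1, the matricellular protein thrombospondin 1, was lower at -0.40 ± 0.028. The limma adjusted p was 0.00041 for Icam1, 0.00058 for Vcam1, 0.0011 for Fn1, 0.0019 for Lama4 and 0.00090 for Thbs1, and each kept its sign on 6 of 6 arrays. For 4 of the 42 ligand genes the probe was saturated on some array, which compresses a ratio. Fn1 and both chains of its receptor, Itga5 and Itgb1, were thus called higher, but Itga5 was not called on the Cy5 arrays alone (0.086). Vcam1 was higher and the alpha4 chain lower on 2 of its 4 kept probes. The brighter of these 2 was at 0.0067 on the Cy3 arrays alone, and the other kept probes had means of 0.016 and 0.0066.

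Of 17 measured membrane partners, 10 were called higher and 2 lower, with a median of 0.12. The syndecan gene Sdc4, a co-receptor for fibronectin, was at 0.81 ± 0.043, the integrin-associated protein gene Cd47 at 0.45 ± 0.075 and the hyaluronan receptor gene Cd44 at 0.43 ± 0.026. The receptor kinase gene Axl was at 0.32 ± 0.023 and the urokinase receptor gene Plaur at 0.31 ± 0.048. The limma adjusted p was 0.00047 for Sdc4, 0.0095 for Cd47, 0.00059 for Cd44, 0.00093 for Axl and 0.0077 for Plaur, all above 0 on 6 of 6 arrays. Without the 2 h sample the calls of Cd47 (0.45) and Plaur (0.31) were lost, with limma adjusted p of 0.060 and 0.053. Cd47 had a called slope, 0.22 per doubling of time (limma, adjusted p = 0.035), with 0.23, 0.45 and 0.67 at 1, 2 and 4 h. That slope was not called with an offset of 16, with the scanner's processed signals or with the authors' deposited values, under which no probe had a called slope. Under median centring the medians of the adhesion site, ligand and partner lists turned to -0.078, -0.050 and -0.036, with 2 higher and 16 lower, 6 and 11, and 7 and 7. Of all kept probes, 5.49% were then higher and 24.4% lower. Without the 2 h sample the adhesion site list had 1 higher and 4 lower, the ligands 8 and 2 and the partners 6 and 0. Of all kept probes, 3.03% were higher and 2.82% lower without that sample. Without replicate 1 the ligands had 7 lower (19.3% of all kept probes) and without replicate 2 they had 8 (16.5% of all). Without replicate 1, 2 of the leukocyte and platelet integrin genes were called higher (14.8% of all kept probes). Each of the 16 genes named here outside the 10 integrins kept its sign under that centring.

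**Figure D4:**
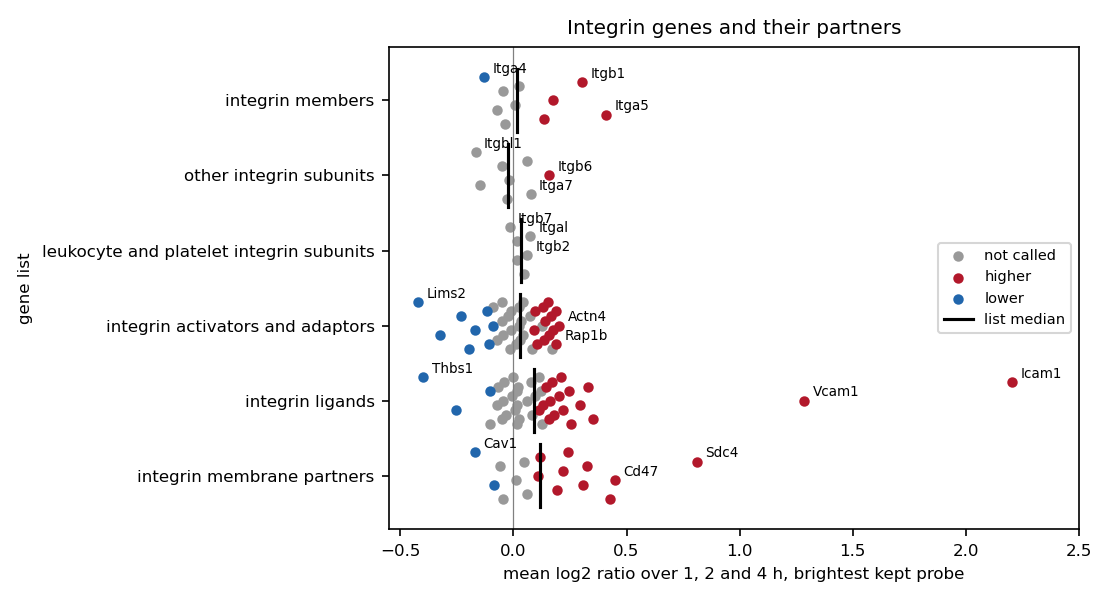
Mean log2 ratio over 1, 2 and 4 h of the brightest kept probe of each gene on 6 lists, red where called higher, blue where called lower and grey otherwise, with black bars at the list medians and points spread vertically for legibility. The 10 integrin members span -0.13 to 0.41, whereas the ligands reach 2.21 with Icam1 and the membrane partners 0.81 with Sdc4.

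The cells carried the markers of their label, and some smooth muscle and pericyte markers were also bright. All 14 fibroblast markers were well above background on all 6 arrays in untreated RNA, with 4 of them saturated on some array. All 11 leukocyte markers, all 6 smooth muscle and pericyte markers and all 6 measured keratinocyte markers were also well above background there, as were 5 of 6 mast cell markers. Of the marker genes of other cells, 6 of 9 for keratinocytes, 5 of 8 for endothelium, 11 of 11 for leukocytes, 6 of 6 for mast cells, 3 of 6 for melanocytes, 6 of 6 for smooth muscle and pericytes and 1 of 4 for adipocytes were measured. The endothelial genes Pecam1 and Cdh5 were not kept. The flag that defines well above background is permissive, since up to 14.3% of 314 negative control spots carried it in Cy3 and 2.55% in Cy5. The median log2 signal of the leukocyte markers was 7.01, with Lyz2 at 11.7. It was 11.65 for the fibroblast markers and 9.68 for the smooth muscle and pericyte markers. Among the latter, Acta2 was at 15.7 (saturated on some array), Cnn1 at 13.7 and Cspg4 at 11.7, while Myh11, Rgs5 and Des were at 7.64, 6.41 and 6.25. In the mean response 4 fibroblast markers were called higher and 2 lower, from Twist2 at 1.26 and Dcn at 0.46 to Col3a1 at -0.25 and Twist1 at -0.33. One of those called higher, S100a4 at 0.17, was saturated on 6 of 6 arrays in untreated RNA and 3 of 6 in treated RNA. It was above 0 on 3 arrays and below 0 on 3. With saturated spots left out, 3 of 10 measured fibroblast markers were higher and 2 lower. Of the smooth muscle and pericyte markers 2 were called higher, Cspg4 at 0.21 and Myh11 at 0.085, each above 0 on 6 of 6 arrays. Under median centring 2 fibroblast markers were higher and 5 lower, and 0 smooth muscle and pericyte markers were higher and 1 lower. That centring called 5.49% of all kept probes higher and 24.4% lower. Without the 2 h sample 2 fibroblast markers were higher and 1 lower, the calls of Dcn and Twist1 being lost. Of the smooth muscle and pericyte markers Cspg4 alone was then higher. Leaving out 2 h gave 3.03% higher and 2.82% lower over all kept probes. The call of Myh11 was lost without any 1 of the times and without replicate 2. By the same test 3 leukocyte markers were called higher and 1 lower, within -0.12 to 0.13, and 1 keratinocyte marker was lower. In limma 0 endothelial, mast cell, melanocyte and adipocyte markers were called, 1 endothelial and 1 melanocyte marker having an unadjusted p under 0.05, and a trended and robust variance also called 0. Without replicate 1, 1 endothelial and 1 adipocyte marker were higher and 1 endothelial marker lower (14.8% and 19.3% of all kept probes). Without replicate 2, 1 mast cell marker was higher and 1 endothelial and 1 adipocyte marker lower (20.5% and 16.5% of all). The part of other cells in the integrin values was not tested.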

How the data were processed

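Total RNA was labelled in 2 colours and hybridised to Agilent arrays, per the labels' protocols. Images were quantified with Agilent Feature Extraction 7.5.1, per the file headers, and the deposited intensity columns used were mean foreground and median local background. The authors also deposited log2 ratios, each column of which equals the log2 processed ratio of the other array of its time for 100% of 43790 spots within 0.001. For the probe coordinates the build was not stated in the sources, so gene positions are those of the RefSeq table.

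Mean intensities were corrected with normexp (offset 50) and normalised by loess within arrays in limma 3.58.1 (R 4.3.3), with control spots at weight 0. Outlier flags were left out, saturated spots kept and spots of a probe averaged. The filter asked that a probe carry the well-above-background flag throughout 1 or more of the 4 conditions (30634 of 41174 did), and 57 probes lacking a value were dropped. The dye-swapped arrays of a time were averaged, and lmFit gave a mean response, with 2 residual degrees of freedom, and a slope on log2 time, with 1. Both were tested with eBayes over all kept probes, two-sided, at an adjusted p of 0.05. The scripts were tested on simulated data. The arrays' median signal lay between 124 and 138 in Cy5 and between 122 and 128 in Cy3, and the number of arrays limits the precision.

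All 10 members were named with every probe; on each list of partners, at most 5 called genes with the largest mean response were named, and 5 genes nearest to the member with the largest one. Itga8, Itgbl1, the cell type markers and the genes Cxcl1, Nfkbia and Il6 were named outside this rule, the markers after their values were seen. One gene of the adhesion site list is not reported here. The members and lists were chosen with earlier results of these data known. Alternatives were the background correction, the scanner's processed signals, median centring, the filter, saturated spots, the brightest probe, the authors' values, each replicate and time left out, the replicate number as a block, and the variance model.

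Same-numbered arrays deviated together from their time means (correlations of 0.843, 0.768 and 0.765 over probes). With 2 arrays per time this mirrors the dye effect, because the replicate number marks the dye orientation in the labels. The opposite orientations of a time correlated at 0.254, 0.318 and 0.305 over all kept probes.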

Additional observations from a re-analysis of the deposited data

How the results depend on the processing

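Over the tests of single integrin probes under the alternatives, 260 values kept their side of the threshold, 31 lost the call, 9 gained one and 4 are given below as reversed. Of the 260, 240 kept their sign and 20, all of probes not called, changed it. The integrin probes called higher fell from 6 to 2 with the scanner's processed signals, to 2 under median centring, to 1 with the authors' values and to 2 without the 2 h sample. Those called lower fell from 2 to 1 with the brightest probe of each gene and to 0 without the 2 h or the 4 h sample. Over all probes, 3214 higher and 3472 lower calls became 1033 and 933 with processed signals, 992 and 890 with the authors' values, 1680 and 7452 under median centring and 927 and 861 without the 2 h sample. Leaving out a replicate gave 4538 to 6268 higher and 5032 to 5901 lower. The calls of a slope, 60 rising and 74 falling, became 0 and 0 with an offset of 16 (2794 probes with an unadjusted p under 0.05 in limma), with processed signals (2759) and with the authors' values (2744). They became 236 and 283 without background correction, 278 and 212 under median centring, 335 and 345 with a trended robust variance, and 8 to 17 rising and 13 to 30 falling without one replicate.

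With the replicate block, on 6 unaveraged arrays, slopes were called for 164 and 184 probes. The block added the brightest Itga1 probe (-0.072, limma adjusted p = 0.032) and changed no other integrin call.

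By size, integrin probes passing upward became 1 at 4 h with processed signals and with the authors' values, and 1 passed downward there in both. A size of 0.25 gave 1 at 2 h and 1 at 4 h, and leaving out a replicate gave 0 to 1 at each time. All probes passing upward at 1, 2 and 4 h ranged from 49 to 402, 41 to 517 and 34 to 475 over the alternatives, and downward from 2 to 261, 0 to 308 and 0 to 323. Reversed values were those of Itgb5 under median centring (-0.034), Itgb3 (-0.16 to 0.17), the brightest Itga4 probe (-0.26 to 0.0067) and the dimmer kept Itgav probe (-0.17 to 0.13) without one replicate. The causes were not tested. A slide or scan as a block was not run, since each slide held 1 array. Signal near background limits Itga1, Itga2, the dim Itga4 probes and the beta1D probe.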

Other observations

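Outside the 10 genes described, Itga8, the alpha chain of a nephronectin receptor, and Itgbl1, which encodes an integrin-like secreted protein, were below 0 on all 6 arrays. Their mean responses were -0.15 ± 0.047 and -0.17 ± 0.049. Neither was called in the reported limma fit (adjusted p = 0.071 and 0.056). Over the alternatives Itga8 was called lower in 4 of 14 and Itgbl1 in 5 of 14, and both kept their sign in 14 of 14. Their values at 1, 2 and 4 h were -0.043, -0.11 and -0.29 for Itga8 and -0.10, -0.076 and -0.32 for Itgbl1, so both were lowest at 4 h. They were named after their values were seen.

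A probe without a gene symbol that the scanner files describe as integrin alpha 4 (A_52_P172541) had a mean response of -0.038 ± 0.043 (limma, adjusted p = 0.59; below 0 on 4 of 6 arrays). Another, described as integrin alpha 6 (A_52_P287772), was not well above background on any array. Neither entered the counts of the 10 genes.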
